A study of Mus musculus with 11 samples.

Results

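The genes described here encode subunits of the NMDA receptor, a glutamate-gated ion channel. They were chosen by symbol, as the rows Grin1, Grin2a, Grin2b, Grin2c, Grin2d and Grin3a of the deposited count tables. They are 6 of the 32531 genes counted in each of 11 libraries.

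NMDA receptors are tetramers that open when glutamate is bound and the membrane is depolarised, and that pass calcium into the cell. Each holds obligatory GluN1 subunits, encoded by Grin1, which bind the co-agonist glycine or D-serine. The GluN2 subunits, encoded by Grin2a to Grin2d, bind glutamate and set how long the channel stays open. GluN2A and GluN2B predominate in the adult forebrain, GluN2C is best known from the cerebellum, and GluN2D from interneurons and subcortical regions. GluN3A, encoded by Grin3a, binds glycine and lowers calcium entry. In cortical pyramidal neurons the receptor is best known for its part in synaptic plasticity, and drugs of abuse are widely studied for their effect on it.

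The study used TRAP-seq, in which ribosomes carrying an EGFP-tagged protein, Rpl10a, are pulled down with their RNA and the RNA is sequenced. All libraries came from adult mice of the Glt25d2-TRAP DU9 line, in which regulatory DNA of Glt25d2, now named Colgalt2, drives the tag in pyramidal neurons, chiefly of cortical layer 5. Immunopurified (IP) RNA was sequenced from 3 groups of 3 libraries each. The mice had self-administered saline or cocaine or were yoked controls, all in a short-access intravenous study. A single input library (saline group, RNA before the pull-down) and a single unbound library (cocaine group, RNA left after it) complete the 11. What the yoked mice received, the animals' sex and exact age, and whether a replicate is 1 mouse or a pool are not stated in the labels. The p-values therefore measure the spread between these libraries, which may be technical. The tissue label reads cerebral cortex, whereas the extraction text names the striatum.

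Libraries held 20926712 to 53862653 gene counts, with 18695 to 20383 genes detected. The 3 IP libraries of each treatment ran together on 1 sequencing lane, a different lane for each treatment, so treatment and lane cannot be told apart. The replicate number likewise coincides with the index sequence of the library. The 3 IP libraries numbered 1 stood apart from the other 6 whatever the treatment. Reads outside annotated genes made up 6.28% to 7.29% of their entries against 10.3% to 15.5% in numbers 2 and 3. For this reason the results are given by treatment and by replicate number. Cortical excitatory neuron markers such as Slc17a7 and Neurod6 summed to 1221 to 1498 CPM (counts scaled to a common library size, TMM-scaled over the 11 libraries) in the IP libraries. Markers of striatal projection neurons summed to 342 to 643 CPM, and none of either list was at 0 in all IP libraries. Colgalt2 itself ranged from 136 to 150 CPM among libraries numbered 1 and from 77.3 to 104 CPM among numbers 2 and 3. Its input value was 81.5 CPM and its unbound value 74.5 CPM.

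The 6 subunit genes are related in sequence, so the stretch that encodes the third membrane segment, the most conserved part of the channel pore, is printed for 1 gene each of the GluN1, GluN2 and GluN3 kinds. It shows how alike the genes are to a sequence aligner. The 21 capitals in each line mark the bases that encode the conserved core of that segment, with 18 bases on either side, read 5′ to 3′ on the coding strand from GENCODE M21 transcripts (GRCm38, the assembly of mm10). All 6 genes lie on the minus strand and each window lies within 1 coding exon of the gene's longest coding transcript.
Grin1 (chr2:25297184-25297240, exon 15): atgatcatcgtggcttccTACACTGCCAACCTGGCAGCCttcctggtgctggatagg
Grin2c (chr11:115253734-115253790, exon 11): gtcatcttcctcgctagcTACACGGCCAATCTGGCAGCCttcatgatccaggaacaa
Grin3a (chr4:49770455-49770511, exon 3): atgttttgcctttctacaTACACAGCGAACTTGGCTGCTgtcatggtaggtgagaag
Over these 57 bases Grin1 and Grin2c differed at 17 positions, Grin1 and Grin3a at 22, and Grin2c and Grin3a at 24. Over whole exon sequences, the longest run shared exactly by any pair was 34 bases, between Grin2b and Grin2c, and no run of 50 bases was shared between subunit genes. Of the runs of 50 bases in Grin2a exons, 11.6% also occur in another gene, either the pseudogene Gm7328 or Aoc2, and reads that align to several places enter no gene count. In Grin1, 8.24% of such runs also occur in another gene on either strand, all but 3 of the 829 only on the opposite strand. The genes matched on the opposite strand are the antisense gene Grin1os and Gm26668. Grin1os held 0 to 8 counts per library where Grin1 held 1106 to 7026. The counting strand is not stated, so reads from the 2 genes cannot be told apart where they overlap.

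Grin1 lies at chr2:25291181-25319187. It was at 134, 70.6 and 83.7 CPM in saline IP replicates 1, 2 and 3, at 137, 66.4 and 83.3 CPM in cocaine and at 164, 77.2 and 69.5 CPM in yoked. The highest value of each treatment was the library numbered 1, and the ranges of the 3 treatments overlapped. The input was at 75.7 CPM and the unbound library at 55.8 CPM, the lowest of the 11. In the unbound library 7.34% of entries were ambiguous between genes, against 1.56% to 1.91% in the others, and Grin1 overlaps Grin1os. The part of this in its Grin1 value was not tested.

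Grin2a (chr16:9567898-9995560) encodes the GluN2 subunit that gains ground as the forebrain matures. It was at 30.8, 40.2 and 48.4 CPM in saline, 19.1, 40.3 and 30.9 CPM in cocaine, and 32.0, 50.6 and 50.2 CPM in yoked. Its lowest value in each treatment was the library numbered 1. The input was at 40.4 CPM and the unbound library at 23.3 CPM.

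Grin2b (chr6:135713233-136173511) encodes the GluN2 subunit that is already abundant early in life and binds the kinase CaMKII. It had the most counts of the 6 genes in every IP library but cocaine replicate 1. It was at 170, 248 and 308 CPM in saline, 97.6, 223 and 179 CPM in cocaine, and 188, 264 and 257 CPM in yoked. Here too the library numbered 1 was the lowest of each treatment. The input was at 236 CPM and the unbound library at 186 CPM.

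Grin2c (chr11:115249169-115267243) and Grin2d (chr7:45831883-45878378) were sparse. Grin2c was at 0.918, 2.76 and 3.05 CPM in saline, 1.0, 3.06 and 2.90 CPM in cocaine, and 1.35, 3.38 and 2.80 CPM in yoked. Its input value was 3.17 CPM and its unbound value 2.17 CPM. Grin2d was at 0.517, 0.815 and 0.861 CPM in saline, 0.429, 0.670 and 0.430 CPM in cocaine, and 0.702, 0.487 and 0.678 CPM in yoked. Those are 16 to 33 counts per IP library, too few to show small differences. The input (1.07 CPM) and the unbound library (1.16 CPM) were both above all 9 IP libraries for Grin2d, with 1 library of each.

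Grin3a (chr4:49661611-49845744) was at 31.1, 36.6 and 33.5 CPM in saline, 20.3, 38.5 and 33.0 CPM in cocaine, and 24.8, 36.9 and 35.2 CPM in yoked. The libraries numbered 2 and 3 lay within 33.0 to 38.5 CPM, and all 3 numbered 1 lay below them. The input was at 38.3 CPM and the unbound library at 28.3 CPM.

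**Figure D1:**
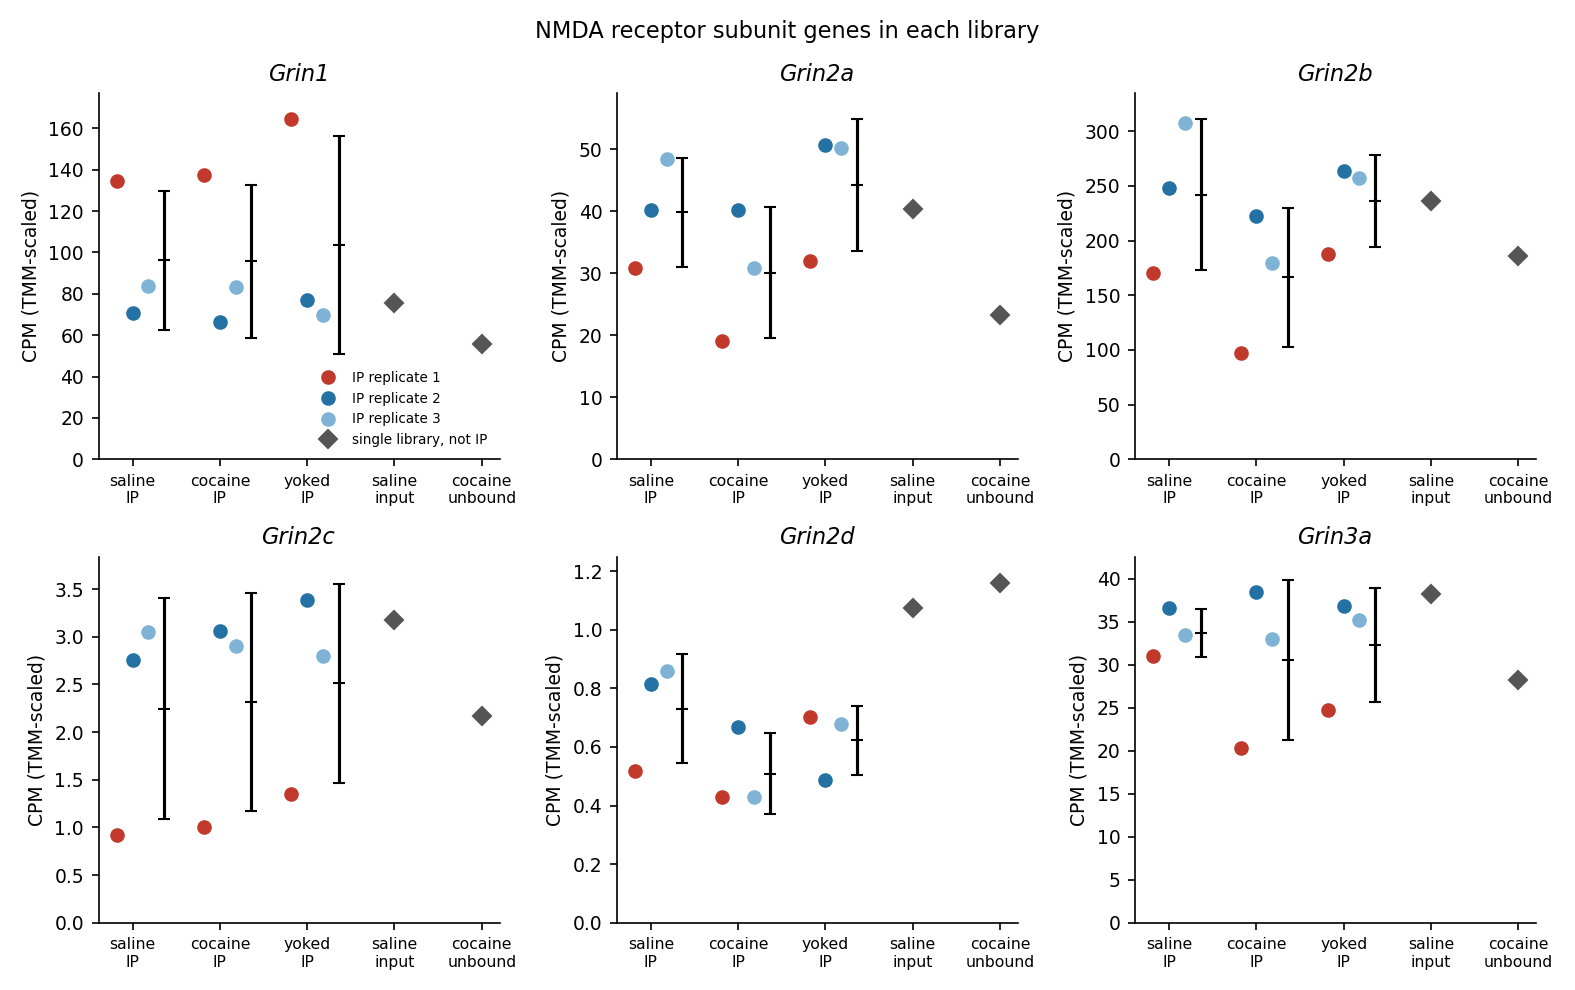
Level of each subunit gene in every library (vertical axis, CPM, TMM-scaled over the 11 libraries), with IP libraries coloured by replicate number, the mean ± SD of the 3 IP libraries beside each group, and the single input and unbound libraries as diamonds. Replicate 1 is the highest IP library of each treatment for Grin1 and the lowest for Grin2a, Grin2b, Grin2c and Grin3a.

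To compare levels between genes, CPM was divided by the summed length of each gene's exons in kb. On that scale Grin1 stood at 10.2 ± 3.77 CPM per kb and Grin2b at 8.65 ± 2.54 (SD, n = 9 IP libraries), which did not differ beyond their spread. Grin3a followed at 2.62 ± 0.492 and Grin2a at 2.12 ± 0.598, whose ranges overlapped. Grin2c stood at 0.468 ± 0.193 and Grin2d at 0.0932 ± 0.0243 CPM per kb, each below the lowest library of the gene before it. Per kb of coding length the first pair changed places, with Grin2b at 48.3 ± 14.2 and Grin1 at 33.5 ± 12.4 CPM per kb, because Grin2b has 24842 bases of exons of which 4447 are coding. The order of the Grin1 and Grin2b means over the 9 IP libraries thus rests on the length used. Library by library, the order of this pair on these scales also went with the replicate number. Grin1 lay above Grin2b in all 3 libraries numbered 1 on both scales. Grin2b lay above Grin1 in numbers 2 and 3 on both scales, except in cocaine replicate 3 per kb of exons. Grin3a, Grin2a, Grin2c and Grin2d kept that order of means below this pair on both scales. Per kb of the longest coding transcript, a length chosen after seeing the data, Grin1 lay above Grin2b in all 11 libraries. The means over the 9 IP libraries were 23.05 and 8.93 CPM per kb. The change of order with the replicate number thus also rests on the length used.

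Among the GluN2 genes, taken per kb of exons, Grin2b made up 74.7% to 78.3% of the summed level in the 9 IP libraries. Grin2a made up 17.0% to 20.3%, Grin2c 2.06% to 6.01% and Grin2d 0.515% to 1.23%. Per kb of coding length these shares were 82.3% to 85.2% for Grin2b, 13.5% to 16.3% for Grin2a, 0.541% to 1.62% for Grin2c and 0.171% to 0.405% for Grin2d, so the small shares depend on the length used. In the input the shares per kb of exons were 75.8%, 17.9%, 5.02% and 1.28%, and in the unbound library 79.8%, 13.8%, 4.58% and 1.85%. The GluN2 mix was thus mostly Grin2b with a smaller part Grin2a in every library and on both lengths.

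The comparison of cocaine with saline self-administration asks whether immunopurified RNA of these genes differs after cocaine taking. None of the 6 subunit genes was called by edgeR's quasi-likelihood test at an adjusted p of 0.05, where 0% of the 16417 genes tested were called, with 0 calls by DESeq2 as well and 168 genes at an unadjusted p under 0.05. Grin2b averaged 166 ± 63.6 CPM after cocaine and 242 ± 69.0 CPM after saline (SD, n = 3 each), a log2 difference of -0.53 ± 0.32 (SE, edgeR adjusted p = 1.0). Within replicate numbers 1, 2 and 3 its log2 differences were -0.80, -0.15 and -0.78, below saline each time, as were 17.2% of all genes tested. Grin2a stood at 30.1 ± 10.6 against 39.8 ± 8.76 CPM, a log2 difference of -0.39 ± 0.30. Its differences were -0.69, 0.0022 and -0.65 by number. For Grin2d, also below saline in all 3 numbers, the log2 difference was -0.51 ± 0.43. Without cocaine replicate 1, Grin2b stood at -0.27 and Grin2a at -0.16, without saline replicate 3 at -0.32 and -0.23, and without cocaine replicate 2 at -0.82 and -0.68.

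Grin1 differed from saline by 0.0079 ± 0.42, Grin2c by 0.06 ± 0.57 and Grin3a by -0.13 ± 0.25 on the log2 scale. The cocaine libraries overlapped the saline libraries for all 6 genes, whereas 2.44% of all genes had every cocaine library below and 2.88% every cocaine library above. The median over the 6 genes was -0.26, with 4 of 6 below saline, beside a median of 0.03 and 46.6% below saline over all genes tested. Long genes lay lower after cocaine in these libraries. With genes sorted by summed exon length into 4 classes of equal size, the median log2 difference was 0.22 in the shortest class, 0.09 and 0.0047 in the next ones and -0.11 in the longest. Of the subunit genes, 4 belong to the longest class and Grin2c and Grin2d to the one before it. With the trend on length removed from each library, Grin2b stood at -0.29 ± 0.15 and Grin2a at -0.21 ± 0.15. Markers of other cells moved beside these values, though no single gene was called. Above saline were 10 of 10 oligodendrocyte markers (median log2 0.33, sums of 702 to 1925 CPM after cocaine and 596 to 1749 CPM after saline), 9 of 10 microglia markers (0.49, 29.3 to 39.5 and 17.1 to 37.5 CPM) and 9 of 10 interneuron markers (0.31, 997 to 1351 and 975 to 1070 CPM). Below saline were 8 of 10 layer 5 markers (-0.21, 560 to 985 and 651 to 1195 CPM) and 8 of 10 endothelial and mural markers (-0.49, 24.6 to 26.8 and 30.2 to 33.4 CPM). Also below it were 7 of 8 nuclear noncoding RNAs (-0.27), but only 2 of 10 astrocyte markers (list median 0.24). Their part in the subunit values was not tested.

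For yoked against saline the log2 differences were close to 0, and again none of the 6 genes passed edgeR's test, where 0% of genes were called. DESeq2 called 0 genes too, and 66 genes had an unadjusted p under 0.05 in edgeR. Grin1 stood at 0.12 ± 0.42, Grin2a at 0.16 ± 0.30, Grin2b at -0.03 ± 0.32, Grin2c at 0.17 ± 0.57, Grin2d at -0.22 ± 0.42 and Grin3a at -0.06 ± 0.25 (SE). Grin2a was above saline in all 3 replicate numbers, by 0.05, 0.33 and 0.05, as were 15.1% of all genes. The median of the 6 genes was 0.05, beside 0.0040 over all genes, and 3 of 6 lay below saline, beside 49.1% of all genes tested. The groups overlapped for all 6 genes, where 2.31% of all genes had every yoked library below saline and 1.91% every one above. All 10 layer 5 markers lay below saline (median log2 -0.19), and all 10 astrocyte markers (0.25) and all 8 nuclear noncoding RNAs (0.28) above it. Only 1 of 10 microglia markers (list median 0.345) and 1 of 10 interneuron markers (0.14) lay below saline. So did 2 of 10 oligodendrocyte markers (0.11) and 4 of 10 endothelial and mural markers (0.06). Their part in the subunit values was not tested.

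Cocaine against yoked shares its cocaine libraries with the first comparison and its yoked libraries with the second. No subunit gene was called by edgeR, where 0% of genes were called, with 0 calls by DESeq2 and 182 genes at an unadjusted p under 0.05. All 6 genes were below yoked, beside 48.5% of all genes tested, with a median log2 difference of -0.20 beside 0.01 over all genes. Grin2a stood at 30.1 ± 10.6 CPM after cocaine against 44.3 ± 10.7 CPM in yoked (SD, n = 3), a log2 difference of -0.56 ± 0.30 (SE, edgeR adjusted p = 0.972). Grin2b stood at 166 ± 63.6 against 236 ± 42.1 CPM, a log2 difference of -0.50 ± 0.32. Both were below yoked in all 3 replicate numbers, as were 18% of all genes, by -0.74, -0.33 and -0.70 for Grin2a and by -0.95, -0.24 and -0.52 for Grin2b. Grin1 (-0.11 ± 0.42), Grin2c (-0.12 ± 0.57), Grin2d (-0.29 ± 0.43) and Grin3a (-0.08 ± 0.25) lay nearer to 0. The groups overlapped for all 6 genes, where 2.56% of all genes had every cocaine library below yoked and 3.09% every one above. Without cocaine replicate 1, Grin2b stood at -0.24 and Grin2a at -0.32, and without cocaine replicate 2 at -0.79 and -0.84. The count of 6 below yoked rested on single libraries. It fell to 4 without cocaine replicate 1 (Grin2c 0.24, Grin3a 0.14) or yoked replicate 2 (Grin2c 0.14, Grin3a 0.01). It fell to 5 without cocaine replicate 2 or yoked replicate 1. From the shortest to the longest class of genes, the median log2 differences were 0.26, 0.09, -0.02 and -0.14. Removal of the length trend brought Grin2a to -0.31 ± 0.15 and Grin2b to -0.24 ± 0.15, and put Grin1 at 0.09 and Grin3a at 0.10 above yoked. Beside these values, all 8 nuclear noncoding RNAs lay below yoked (median log2 -0.78, sums of 207 to 5393 CPM after cocaine and 418 to 7326 CPM in yoked) and 9 of 10 oligodendrocyte markers above it (0.13, 702 to 1925 and 757 to 1693 CPM). Their part in the subunit values was not tested.

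**Figure D2:**
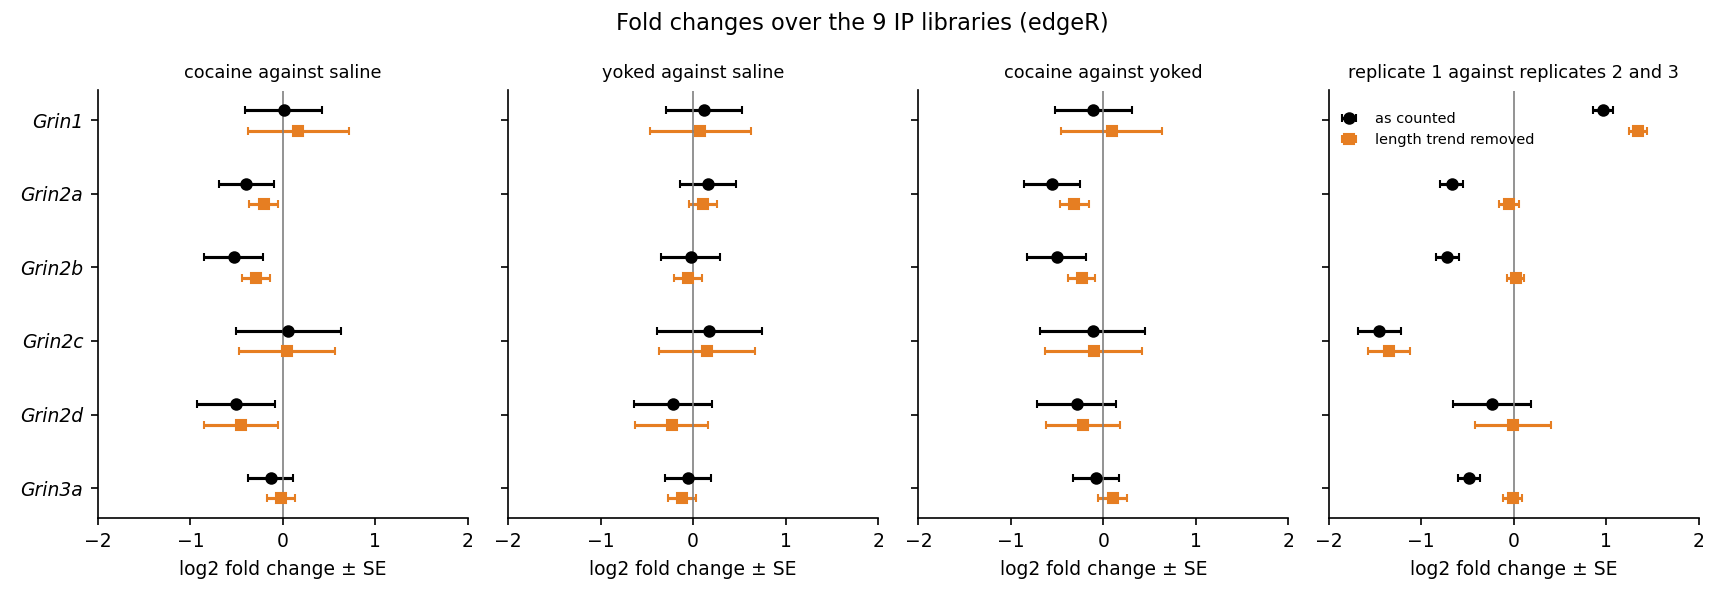
Log2 fold change of each subunit gene in 4 comparisons over the 9 IP libraries (points, bars ± SE), as counted (black circles) and with a trend on exon length removed from each library (orange squares). None of the 6 genes passed the test in the 3 treatment comparisons. In the libraries numbered 1, Grin1 is higher and Grin2c lower on both scales. Grin2a, Grin2b and Grin3a lie at about 0 there once the trend is removed, where the median over all genes is 0.15.

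The balance of Grin2a to Grin2b was taken within each library, where library scaling cannot change it. Grin2a had 0.181, 0.162 and 0.157 counts per Grin2b count in saline replicates 1, 2 and 3, 0.196, 0.181 and 0.172 in cocaine, and 0.170, 0.192 and 0.195 in yoked. The means were 0.167 ± 0.0126, 0.183 ± 0.0119 and 0.186 ± 0.0137 (SD, n = 3 each). Group means differed by at most 0.15 on the log2 scale, and an exact permutation test of the 3 groups over 1680 groupings gave p = 0.254 (0.361 with permutation within replicate numbers), so no difference among the groups was shown. Cocaine lay above saline in all 3 replicate numbers, by 0.11, 0.15 and 0.14 on the log2 scale. The smallest two-sided p that 3 pairs allow is 0.25. Yoked against saline gave -0.09, 0.24 and 0.31. In numbers 2 and 3 alone the groups did not overlap, with saline lowest and yoked highest, and the largest difference of group means was 0.28 (exact permutation p = 0.0667, the smallest that 3 groups of 2 allow). The ratio was also alike in the libraries numbered 1 (0.170 to 0.196) and in numbers 2 and 3 (0.157 to 0.195). The input had a ratio of 0.171. The unbound library had a ratio of 0.125, below all 9 IP libraries, and is a single library.

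Grin1 to Grin2b behaved otherwise. In number 1, Grin1 had 0.789 counts per Grin2b count in saline, 1.41 in cocaine and 0.875 in yoked. In numbers 2 and 3 the ratio was 0.270 to 0.298 except for cocaine replicate 3 at 0.465. The input had a ratio of 0.320 and the unbound library one of 0.300. No library numbered 1 overlapped the others, whatever the treatment.

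**Figure D3:**
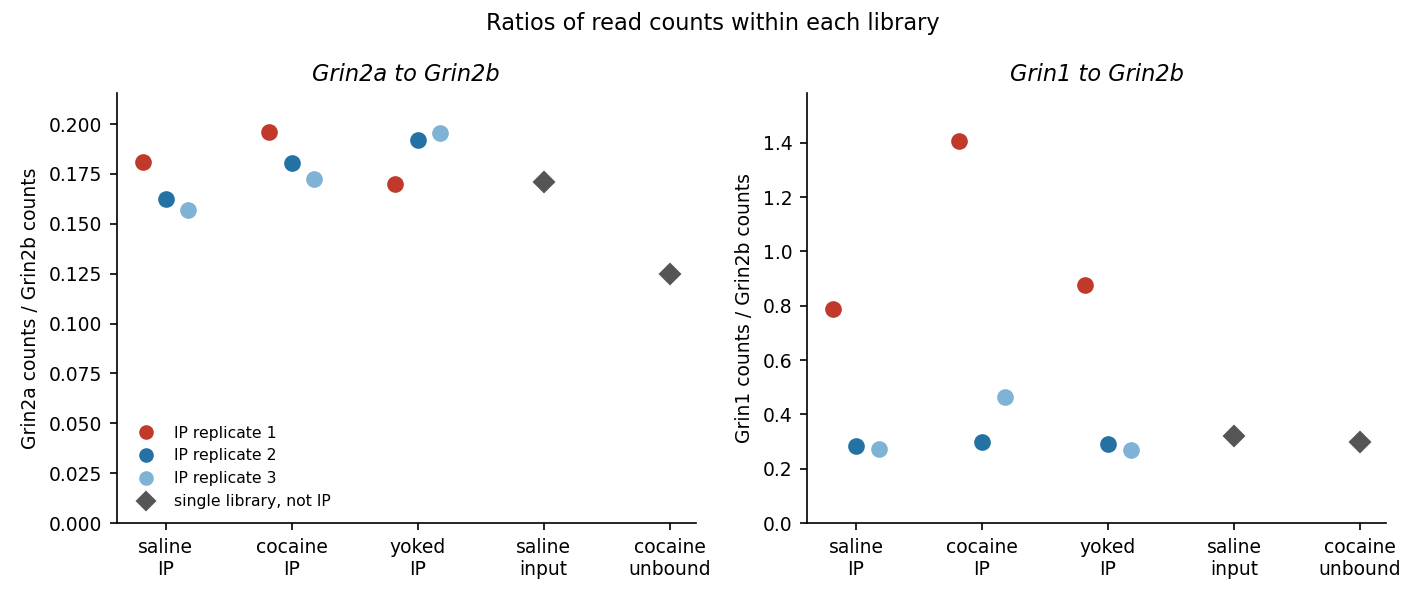
Counts of Grin2a (left) and Grin1 (right) per Grin2b count in every library, with IP libraries coloured by replicate number and the single input and unbound libraries as diamonds. Grin2a to Grin2b lies between 0.157 and 0.196 in all 9 IP libraries, whereas Grin1 to Grin2b is 0.789 to 1.41 in replicate 1 and 0.270 to 0.465 in replicates 2 and 3.

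The subunit genes were next compared by replicate number. In a fit with treatment and number as terms, the libraries numbered 1 were compared with the mean of numbers 2 and 3. Of the 6 genes, 5 passed edgeR's quasi-likelihood test at an adjusted p of 0.05, 1 higher and 4 lower, where 55.3% of the 16417 genes passed, 27.6% higher and 27.7% lower. The 5 of 6 is read against that background. Grin1 rose by 0.97 ± 0.11 on the log2 scale (SE, adjusted p = 3.98e-06), from 75.1 ± 7.38 CPM (SD, n = 6) in numbers 2 and 3 to 145 ± 16.5 CPM (SD, n = 3) in number 1. Grin2c, at 1.09 ± 0.231 against 2.99 ± 0.227 CPM, differed by -1.45 ± 0.24 (adjusted p = 1.23e-04). Grin2b, at 152 ± 47.9 against 246 ± 43.1 CPM, differed by -0.72 ± 0.13 (adjusted p = 2.81e-04), and Grin2a, at 27.3 ± 7.13 against 43.4 ± 7.74 CPM, by -0.67 ± 0.12 (adjusted p = 3.40e-04). Grin3a differed by -0.48 ± 0.12 (adjusted p = 0.00358). For Grin2d the value was -0.23 ± 0.42 (adjusted p = 0.659).

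Number 1 did not overlap numbers 2 and 3 for Grin1 (higher), Grin2c and Grin3a (both lower), as for 45.8% of all genes (21.1% higher and 24.7% lower). For Grin2a and Grin2b the highest library numbered 1 lay just above cocaine replicate 3, the lowest of the others. Replicate 3 against replicate 2 gave 0 calls among the 6 genes by edgeR, where 0% of genes were called and 320 had an unadjusted p under 0.05. DESeq2 called 12 genes higher and 32 lower there, none of them a subunit gene.

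Length again ran with these values. The median log2 difference of number 1 was 0.41 in the shortest class of genes, 0.15 and -0.02 in the next ones and -0.28 in the longest. With the trend on length removed, 2 of the 6 genes were called, where 57.5% of the 14529 genes with a length were (36.3% higher and 21.2% lower). Those were Grin1, higher by 1.34 ± 0.10 (SE, edgeR adjusted p = 2.34e-08), and Grin2c, at -1.34 ± 0.23 (adjusted p = 1.02e-04). Grin2a (-0.05), Grin2b (0.02), Grin2d (-0.0067) and Grin3a (-0.01) lay at about 0 on that scale. It is not centred on 0, as the median over all genes was 0.15 there, against 0.01 as counted. These genes thus lay below the typical gene, and the value of Grin1 includes that shift.

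Cell type markers moved with the replicate number as well. Of 10 markers of layer 5 pyramidal tract neurons, such as Fezf2 and Bcl11b, 9 were higher in number 1 and 0 lower, and their sum was 985 to 1195 CPM against 560 to 726 CPM in numbers 2 and 3. Of 10 astrocyte markers, 0 were higher and 8 lower, with sums of 996 to 1431 against 2419 to 2975 CPM. Oligodendrocyte markers (0 higher and 8 lower of 10) summed to 596 to 757 against 1406 to 1925 CPM, and microglia markers (0 higher and 6 lower of 10) to 17.1 to 29.3 against 31.3 to 47.4 CPM. Interneuron markers (3 higher and 7 lower of 10) gave overlapping sums. So did endothelial and mural markers, of which 6 were higher and 2 lower of 10 (26.4 to 34.9 against 24.6 to 33.4 CPM). Excitatory neuron markers were 2 higher and 1 lower of 6, at 1381 to 1498 against 1221 to 1328 CPM. Striatal projection neuron markers were 1 higher and 5 lower of 9, at 342 to 412.5 against 545 to 643 CPM. All 8 noncoding RNAs that stay in the nucleus, such as Malat1 and Meg3, were lower, at 207 to 418 against 2465 to 7326 CPM. In the input, the layer 5 sum was 582 CPM, the astrocyte sum 2577 CPM and the oligodendrocyte sum 1644 CPM. Its nuclear noncoding sum was 5278 CPM. Each of these lay within the range of numbers 2 and 3 and outside that of number 1. No marker on these lists was at 0 in all libraries. Fewer cells of a type and less RNA per cell cannot be told apart in such bulk libraries, and the part of these markers, of length or of reads outside genes in the values of the subunit genes was not tested.

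The fractions were compared library by library, because there was 1 input and 1 unbound library, each run on another lane than the IP libraries, so lane and fraction cannot be told apart. Ratios were taken as log2 of CPM with a prior count of 2, scaled over the 4 libraries concerned. A gene counted as called if each of the 3 IP libraries stood 2-fold or more above, or each 2-fold or more below, the other fraction. Grin2d fell below the minimum mean of 1 CPM, which left 5 of the 6 genes. Saline IP over input gave 0.84, -0.10 and 0.15 for Grin1 in replicates 1, 2 and 3, a mean of 0.30 ± 0.49 (SD, n = 3). The values were -0.38, -0.0015 and 0.26 for Grin2a and -0.46, 0.07 and 0.38 for Grin2b, with means of -0.04 ± 0.32 and -0.0013 ± 0.43. Grin2c gave -1.72, -0.19 and -0.05, and Grin3a -0.29, -0.06 and -0.19, the only gene of the 5 below the input in all 3 libraries besides Grin2c. None of the 5 was called, where 0.119% of 13479 genes were (0.0742% higher and 0.0445% lower). The ratios of Grin1, Grin2a and Grin2b thus changed sign between libraries of 1 treatment. Over all genes, saline replicate 1 had 368 genes at least 2-fold above the input and 1532 at least 2-fold below. Replicate 2 had 62 above and 35 below, and replicate 3 had 68 and 87. Replicates 2 and 3 thus lay close to the input, and a rule that needs all 3 libraries could call few genes.

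Cocaine IP over unbound RNA gave 1.40, 0.33 and 0.64 for Grin1, above the unbound library each time (mean 0.79 ± 0.55). Grin2a gave -0.18, 0.87 and 0.47, Grin2b -0.83, 0.34 and 0.0067, Grin2c -0.97, 0.56 and 0.47, and Grin3a -0.37, 0.53 and 0.28. For each of these 4 genes replicate 1 was below the unbound library and replicates 2 and 3 above it. None of the 5 genes was called, where 2.43% of 13526 genes were, 0.518% higher and 1.91% lower. An edgeR fit to the 11 libraries together, with the spread estimated from replicated groups, called none of the 6 genes in either fraction comparison. Against the input 0% of 18070 genes were called, and 106 had an unadjusted p under 0.05. Against the unbound library 0.0553% were called, and 1870 had an unadjusted p under 0.05. The unbound library had 20926712 gene counts, the fewest, and was prepared under a library number far from those of the rest. Of its entries 7.34% were ambiguous between genes, against 1.56% to 1.91% in the others, and 28.3% aligned to several places, the lowest share. The part of these differences in the ratios to the unbound library was not tested.

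**Figure D4:**
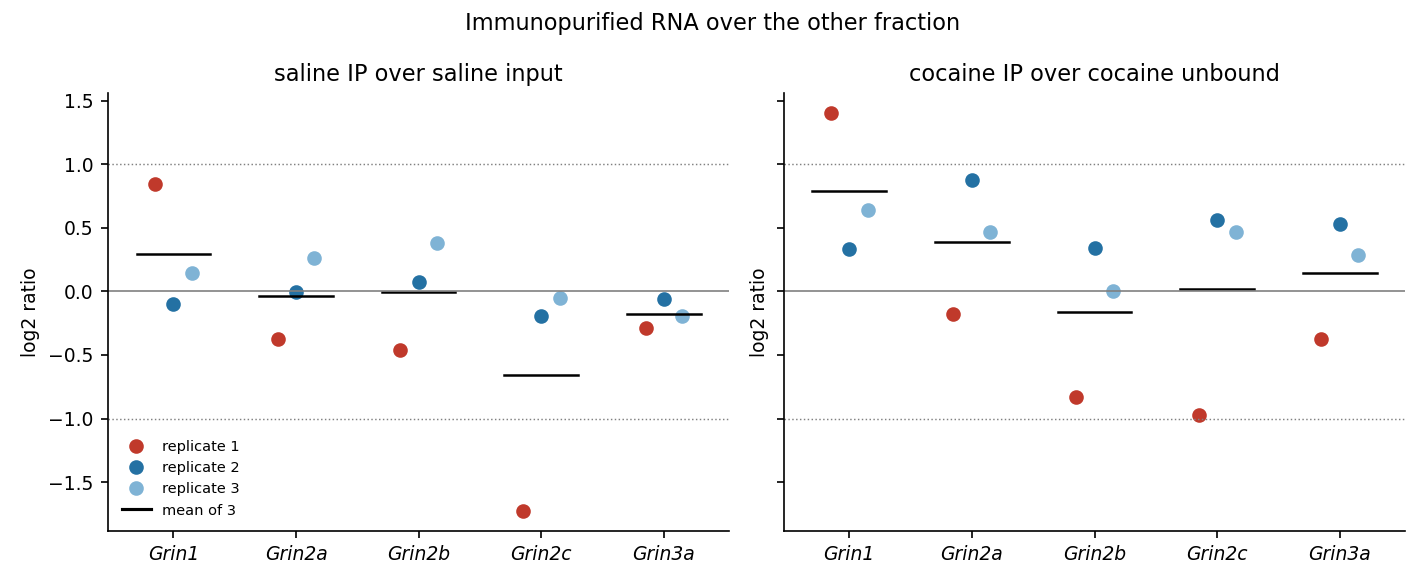
Log2 ratio of each IP library to the single saline input (left) or the single cocaine unbound library (right) for the 5 subunit genes past the minimum level, coloured by replicate number, with black lines for the mean of 3 and dotted lines at 2-fold. No gene has all 3 libraries past 2-fold, and replicate 1 is the highest or the lowest library of every trio.

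The receptor works within a large postsynaptic complex, so 71 genes of its partners were listed by role, of which 68 were tested. None passed edgeR's test in any treatment comparison, where 0% of genes did. After cocaine 40 of 68 were below saline (46.6% of all genes were), 32 of 68 were below saline in yoked (49.1%), and 45 of 68 were lower after cocaine than in yoked (48.5%). With the length trend removed, 32 of 68 lay below saline after cocaine (median log2 0.0094), where 6872 of all 14529 genes did (0.0155). In yoked 40 of 68 lay below saline (-0.02), where 7966 of all genes did (-0.02). Below yoked after cocaine were 31 of 68 (0.05, from -0.07 as counted), where 6535 of all genes were (0.03). Of the 14 scaffold genes, which tie the receptor to the postsynaptic density, 12 were below saline after cocaine with a median log2 difference of -0.12. Of the 9 tested genes for supply of the co-agonists glycine and D-serine, 1 was below saline, with a median of 0.34. Against yoked, 4 of these 9 were below after cocaine (median 0.04). Among the other roles, 6 of 7 auxiliary and surface genes were below saline (-0.14) and 7 of 13 anchoring and trafficking genes (-0.12). So were 6 of 9 calcium effectors (-0.07) and 8 of 16 kinases and phosphatases (-0.0019). Differences between roles were not tested.

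The partners with the lowest values after cocaine against saline were Nrp1, a semaphorin co-receptor (-0.40 ± 0.34, SE), the scaffold Shank2 (-0.39 ± 0.29) and the actin cross-linker Actn2 (-0.37 ± 0.24). The highest were Lin7b, a receptor-trafficking adaptor (0.67 ± 0.49), and the serine synthesis enzymes Psph (0.48 ± 0.27) and Phgdh (0.43 ± 0.32). Lin7b stood at 152 CPM in cocaine replicate 1 and at 35.2 to 70.5 CPM in the other 8 IP libraries, and without that library its value was -0.21, that of Shank2 -0.14 and that of Psph 0.20. Without saline replicate 1, Nrp1 stood at -0.11 and Phgdh at 0.13. In yoked against saline the extremes were Actn2 (-0.45 ± 0.24), the calcineurin subunit Ppp3cb (-0.36 ± 0.18), Sharpin (-0.26 ± 0.22), the serine hydroxymethyltransferase Shmt1 (0.43 ± 0.51), the amino acid exchanger Slc7a10 (0.42 ± 0.56) and the glycine transporter Slc6a9 (0.28 ± 0.24). Without saline replicate 1, Slc7a10 stood at 0.027 and Slc6a9 at 0.089, and without yoked replicate 2 Shmt1 stood at -0.044. Against yoked, cocaine values ran from Shank1 (-0.45 ± 0.34), the transcription factor Creb1 (-0.40 ± 0.60) and Nrp1 (-0.38 ± 0.34) to the phosphatase subunit Ppp1ca (0.61 ± 0.34), Psph (0.64 ± 0.27) and Lin7b (0.92 ± 0.49). Without cocaine replicate 1 these became -0.12 for Shank1, -0.020 for Creb1, 0.085 for Ppp1ca, 0.36 for Psph and 0.034 for Lin7b. Creb1 stood at -0.024 without yoked replicate 3 and Nrp1 at 0.037 without yoked replicate 1.

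In the libraries numbered 1, 24 partners were higher and 24 lower of 68 by edgeR's test, where 27.6% of all genes were higher and 27.7% lower. With the length trend removed, 33 were higher and 15 lower, where 36.3% of genes were higher and 21.2% lower. As counted, the roles divided unequally. Scaffold genes were 1 higher and 9 lower of 14, and anchoring and trafficking genes 3 higher and 7 lower of 13. Kinases and phosphatases were 9 higher and 2 lower of 16, calcium effectors 5 higher and 4 lower of 9, auxiliary and surface proteins 4 higher and 0 lower of 7, and co-agonist supply genes 2 of each among 9. The differences between roles were not tested.

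Among the called partners with the largest changes, Rasgrf1, a calcium-responsive Ras activator that binds GluN2B, stood at 459 to 582 CPM in number 1 and at 296 to 357 CPM in the others, a log2 difference of 0.76 ± 0.10 (SE). Lin7b rose by 1.06 ± 0.18, or by 0.63 without cocaine replicate 1. Creb1 stood at 66.6 to 104 CPM against 185 to 322 CPM, a difference of -1.59 ± 0.14. The adaptor Apba1 (-1.11 ± 0.12), its partner Lin7c (-0.99 ± 0.12), the kinase anchors Akap5 (-0.93 ± 0.14) and Akap9 (-0.87 ± 0.13) and the scaffold Shank3 (-0.76 ± 0.12) were lower. For Slc7a10 the difference was -1.10 ± 0.37 (edgeR adjusted p = 0.0191), a call that ended without saline replicate 1 (adjusted p = 0.117), saline replicate 2 (0.0567) or cocaine replicate 3 (0.0564). With the length trend removed Akap9 was no longer called (-0.19, adjusted p = 0.0629), and the other 8 partners named in this comparison were.

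**Figure D5:**
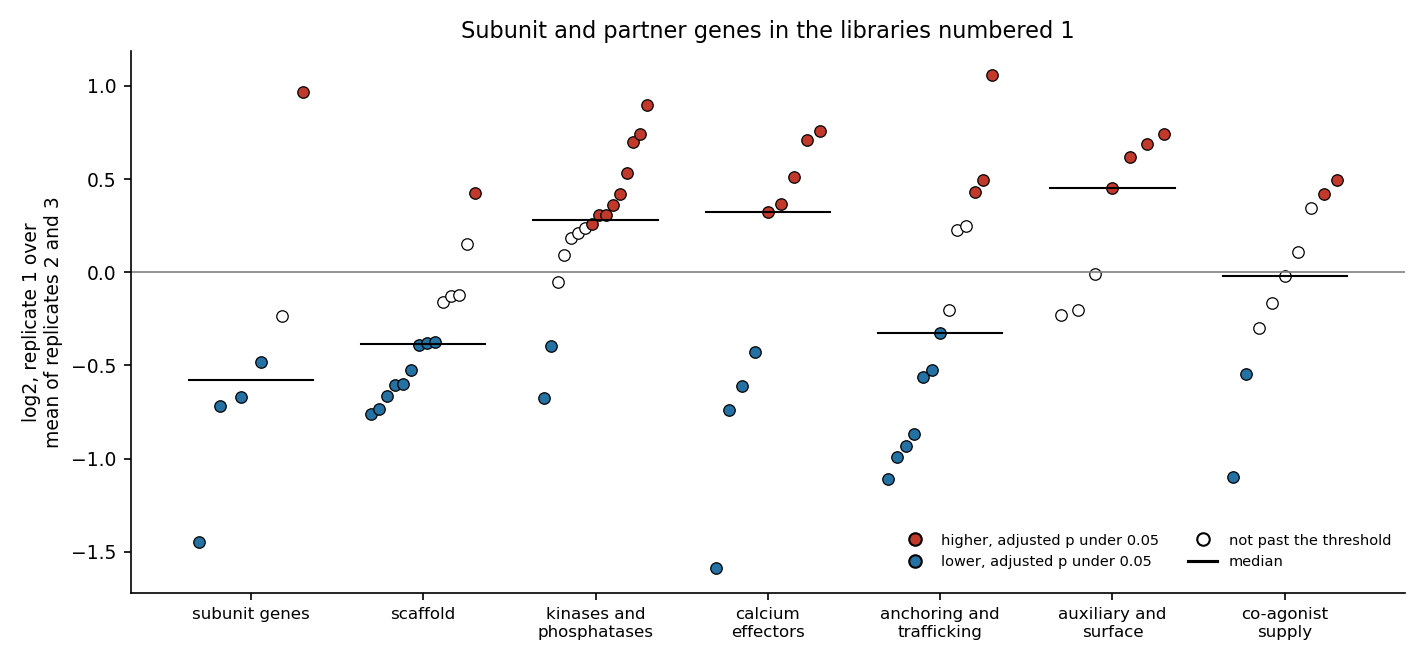
Log2 difference between the IP libraries numbered 1 and the mean of numbers 2 and 3 (vertical axis) for the subunit genes and the tested partner genes by role, filled where edgeR's adjusted p was under 0.05, with a line at each median. Scaffold genes lie mostly below 0 (1 higher and 9 lower of 14) and kinases and phosphatases mostly above it (9 higher and 2 lower of 16).

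The likeness of profiles was measured as the root mean square difference of log2 CPM over the 11 libraries, each profile centred on its own mean, against the 8370 genes that averaged 10 CPM or more. Grin2a and Grin2b were the closest pair of subunit genes at 0.18. Grin1 was 0.69 to 1.07 away from the other 5 members. The genes nearest to Grin1 were Pcdhgc5 (0.08), Slc6a7 (0.10) and Gpc4 (0.11), and Pcdhgc5 stood at 63.3 to 84.9 CPM in number 1 and at 34.3 to 41.4 CPM in numbers 2 and 3. Nearest to Grin2a were Flrt1 (0.10), Slc39a9 (0.11) and Atf6 (0.12), and nearest to Grin2b were Dgkh (0.08), Kctd16 (0.11) and Zbtb16 (0.12). Genes near to Grin2c were Kcnc1 (0.13) and Mcc (0.14), and Grin3a was nearest to Tacc2 (0.08), Cbfa2t2 (0.08) and Cdkl2 (0.08). For Grin2d the nearest gene, Gpr75, was 0.26 away. These distances describe 11 libraries whose largest shared feature is the replicate number.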

How the data were processed

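RNA was measured in 11 libraries. Per the submitters' processing notes, alignment used STAR 2.0.0e and the mm10 genome, and counting per gene symbol used HTSeq. Its version, annotation and strand setting are not given in the sources used. The deposited values are raw counts, with 32537 entries per library. The 6 entries that name no gene entered neither library sizes nor tests. Reads aligned to several places made up 28.3% to 47.0% of entries and enter no gene count, which lowers genes with close copies. Counts without molecular identifiers include PCR copies. Gene positions, lengths and sequences come from GENCODE M21 (GRCm38), which may differ from the authors' annotation. All 6 subunit symbols matched 1 gene model each, as did 71.1% of the 32531 symbols.

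The 9 IP libraries entered 1 edgeR fit (version 4.0.16, R 4.3.3) with a mean per group, TMM scaling, filterByExpr, the robust quasi-likelihood test and Benjamini-Hochberg adjustment over 16417 genes at 0.05. Same-numbered libraries deviated together from their group means (pairwise correlations 0.376 to 0.795 over genes). Correlations between numbers 2 and 3 were 0.370 to 0.621, and those of number 1 with either -0.740 to -0.473, so number 1 is set apart far more than 2 from 3. Every same-numbered pair exceeded 0.1, and by that rule numbers were taken to pair the libraries. Every pair of a number 2 with a number 3 library exceeded 0.1 too. The rule thus cannot show that 2 pairs with 2 and 3 with 3, beyond the split of number 1 from the rest. The fit with replicate number as a block is an alternative. The comparison of replicate numbers used that block. Ratios within libraries were tested by exact permutation. In the length alternative, a loess trend on exon length (span 0.5) was removed from each library for the 88.5% of tested genes with a length. Other alternatives were RLE scaling, DESeq2 1.42.0, no filter, removal of the ribosomal RNA precursor Rn45s, 2 groups alone and leaving out libraries. All 6 subunit genes are named. Partner genes named are those past the threshold, up to 10 by size, or otherwise the 3 highest and 3 lowest. Some genes and sequences that these rules select are not reported here. The members, the lists and the comparison of replicate numbers were chosen with earlier results of these data known.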

Additional observations from a re-analysis of the deposited data

Results flagged for a closer look

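Grin2d was singled out because its libraries numbered 1 lay on opposite sides of numbers 2 and 3 in different treatments. Replicate 1 over the mean of replicates 2 and 3 gave a log2 difference of 0.27 in yoked, but -0.70 in saline and -0.36 in cocaine. The difference between treatments was not tested, and each IP library held 16 to 33 Grin2d counts. No group of libraries was large enough to be searched for single outlying values.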

How the results depend on the processing

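The counts of called subunit genes stayed at 0 in the 3 treatment comparisons, in replicate 3 against 2 and in both fraction comparisons under every alternative run. The replicate block changed no call. It narrowed the error of Grin2b to -0.56 ± 0.14 (edgeR adjusted p = 0.377) for cocaine against saline and to -0.56 ± 0.14 (0.130) against yoked, and that of Grin2a to -0.43 ± 0.14 (0.377) and -0.58 ± 0.14 (0.130). The block raised the genes at an unadjusted p under 0.05 from 168 to 2023 (cocaine against saline), from 66 to 493 (yoked against saline) and from 182 to 3006 (cocaine against yoked). It turned Grin1 for cocaine against saline to -0.0095, as did RLE scaling (-0.0082), DESeq2 (-0.0095) and leaving out all libraries numbered 1 (-0.041). Without those 3 libraries Grin3a became 0.030 for cocaine against saline, Grin1 and Grin3a -0.066 and 0.047 for yoked against saline, and Grin1 0.025 for cocaine against yoked. Against yoked, removal of the length trend turned Grin1 to 0.089 and Grin3a to 0.098, and with the block to 0.083 and 0.098. For replicate 1 against 2 and 3 it left 2 subunit genes called in place of 5 and turned Grin2b to 0.024. The log2 ratio of mean Grin1 to mean Grin2b level per length over the 9 IP libraries was 0.23 with exon length, -0.53 with coding length and 1.37 with the longest coding transcript, chosen after seeing the data. For Grin2a to Grin2b, permutation within numbers gave p = 0.361, and without the libraries numbered 1 the largest difference of group means rose from 0.15 to 0.28 with p = 0.0667, the smallest that test can give (exact permutation tests).

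Leaving out 1 library at a time kept all counts of called subunit genes. Fold changes that changed sign, none of them called, ranged as follows. For cocaine against saline, Grin1 ran from -0.36 to 0.33, Grin2c from -0.32 to 0.42, Grin3a from -0.35 to 0.085 and Lin7b from -0.21 to 0.98. For yoked against saline, Grin1 ran from -0.39 to 0.44, Grin2b from -0.22 to 0.19, Grin2c from -0.20 to 0.47, Grin3a from -0.16 to 0.10 and Shmt1 from -0.044 to 0.89. For cocaine against yoked, Grin1 ran from -0.48 to 0.40, Grin2c from -0.41 to 0.24, Grin3a from -0.29 to 0.14 and Nrp1 from -0.58 to 0.037. For replicate 1 against 2 and 3, Grin2d ran from -0.51 to 0.0043. Of values that kept their sign, Grin2b ran from -0.82 to -0.27 and Grin2a from -0.68 to -0.16 for cocaine against saline, and from -0.79 to -0.24 and -0.84 to -0.32 against yoked. The cause of these changes was not tested. Depth limits Grin2d and Grin2c, with 16 to 33 and 42 to 132 counts per IP library.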

Other observations

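Grin3b, the other GluN3 subunit gene (chr10:79970715-79977190), held 0 to 13 counts per library, at most 0.238 CPM in the IP libraries, and did not pass the expression filter of the fit. Of the 3 partner genes that were not tested it was 1; the others were Dao, the enzyme that degrades D-serine, and Slc6a5, the glycine transporter of inhibitory terminals.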
